A study of Mus musculus with 12 samples.

Results

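Of the 176680 windows in the authors' table of open chromatin, 1592 lay within 1 kb of the transcription start site of a protein-coding gene and had a GC content under 50%. These low-GC promoter windows belonged to 1466 genes, or 6.69% of the 21924 protein-coding gene symbols of the annotation. They made up 9.60% of the 16589 protein-coding promoter windows, and the other 14997 (GC content of 50% or more) are called GC-rich promoters below. The windows come from ATAC-seq, an assay that marks accessible DNA by where the Tn5 transposase can place adapters, on wild-type C57BL/6N mouse embryonic fibroblasts (MEFs) isolated from the limbs of several pooled embryos at embryonic day 13.5. The compared groups were 4in1_GFP_OE and 4in1_Prox1_OE, with 3 libraries each out of 12 in the series. Both had received lentiviruses for rtTA, the doxycycline-dependent transactivator, and for 4in1, a polycistronic set of transcription factors that drives fibroblasts towards induced hepatocytes, and both were kept in doxycycline and collected on day 2. They differed in the third lentivirus, which carried GFP or FLAG-tagged mouse Prox1, a homeodomain factor that hepatocytes express. The MEF and Prox1_OE groups were not analysed here.

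Most mammalian promoters lie in CpG islands, stretches rich in G and C that are open in nearly every cell type and often belong to housekeeping genes. Promoters poor in G and C usually lack such an island, more often hold a TATA box and belong more often to genes used in particular tissues, among them those for secreted proteins, proteases, cytokines and receptors. Families such as the olfactory receptors and the replication-dependent histones also have many of them. Prox1 is known to act as a repressor at many genes, and fibroblast identity rests in part on AP-1 and TEAD factors, which bind many open regions in these cells.

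Windows with large differences between the groups are printed first, so that the letters stand beside the values that follow. They were taken from the 8 lowest and the 8 highest differences among low-GC promoters at or above the median concentration of all windows. Shown are the 4 lowest and the 3 highest of these whose full length touches no annotated untranslated region, from the GRCm38 (mm10) assembly, written 5′ to 3′ on the strand of the gene. Capitals mark matches to the motifs searched below. The lowest were Mrpl30 (chr1:37894702-37894902, + strand, intron), Olfr432 (chr1:174048960-174049160, + strand, intergenic), Nsmce1 (chr7:125492572-125492772, − strand, intergenic) and Ttc41 (chr10:86712299-86712499, + strand, intron). The capitals are an AP-1 match in Mrpl30, an AP-1 match, a TATA box and a CCAAT box in Olfr432 and a CCAAT box in Nsmce1, both CCAAT boxes read on the other strand.
Mrpl30: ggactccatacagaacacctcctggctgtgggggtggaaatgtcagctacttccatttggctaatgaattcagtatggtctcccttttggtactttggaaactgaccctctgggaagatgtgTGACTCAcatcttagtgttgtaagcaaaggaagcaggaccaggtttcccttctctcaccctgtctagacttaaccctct
Olfr432: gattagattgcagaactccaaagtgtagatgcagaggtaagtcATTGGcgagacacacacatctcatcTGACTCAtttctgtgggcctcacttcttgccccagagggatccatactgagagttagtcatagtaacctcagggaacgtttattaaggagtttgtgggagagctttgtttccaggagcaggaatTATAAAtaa
Nsmce1: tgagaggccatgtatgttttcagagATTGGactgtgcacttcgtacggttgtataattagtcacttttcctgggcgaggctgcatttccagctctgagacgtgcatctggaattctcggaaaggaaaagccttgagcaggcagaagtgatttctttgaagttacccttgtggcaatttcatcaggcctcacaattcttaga
Ttc41: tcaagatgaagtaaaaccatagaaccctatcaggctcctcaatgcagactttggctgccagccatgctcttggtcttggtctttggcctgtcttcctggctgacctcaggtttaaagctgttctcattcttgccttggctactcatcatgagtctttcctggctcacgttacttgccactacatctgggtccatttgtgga

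The 3 on the higher side were Naaladl2 (chr3:24784172-24784372, − strand, intron), Lpcat1 (chr13:73472559-73472759, + strand, intron) and Akap2 (chr4:57853747-57853947, + strand, intron). The capitals are an AP-1 match and an E-box in Naaladl2, a RUNX motif, a CCAAT box and an AP-1 match in Lpcat1 and a RUNX motif in Akap2. The part of the Gzmk window upstream of the transcript (chr13:113225909-113226091, − strand, 183 bases) is added because of its repeats, and was chosen after its values were seen.
Naaladl2: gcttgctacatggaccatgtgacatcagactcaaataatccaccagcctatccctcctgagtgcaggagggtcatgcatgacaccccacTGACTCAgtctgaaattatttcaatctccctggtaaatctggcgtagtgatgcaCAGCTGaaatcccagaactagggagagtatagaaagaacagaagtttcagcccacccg
Lpcat1: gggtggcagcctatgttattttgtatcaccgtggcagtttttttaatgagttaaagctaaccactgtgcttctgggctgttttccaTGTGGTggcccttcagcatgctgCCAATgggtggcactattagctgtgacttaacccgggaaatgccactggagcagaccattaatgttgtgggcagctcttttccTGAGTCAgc
Akap2: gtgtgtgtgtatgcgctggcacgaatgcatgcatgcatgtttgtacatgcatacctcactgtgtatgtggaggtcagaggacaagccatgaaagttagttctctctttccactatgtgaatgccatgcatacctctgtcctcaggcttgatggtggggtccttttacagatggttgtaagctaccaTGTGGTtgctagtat
Gzmk: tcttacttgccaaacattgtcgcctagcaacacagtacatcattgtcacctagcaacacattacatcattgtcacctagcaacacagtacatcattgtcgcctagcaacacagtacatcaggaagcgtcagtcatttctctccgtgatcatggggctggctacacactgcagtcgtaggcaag

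The Gzmk stretch holds 4 copies of the 12-base unit cctagcaacaca, searched on both strands. That unit was found in 22 of all 176680 windows and in no other low-GC promoter window.

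Each value below is the authors' mean over the 3 libraries of a group. The concentration of a window is the log2 of its mean normalized read count, and the difference is the 4in1_Prox1_OE concentration minus the 4in1_GFP_OE concentration, so that a negative value is a lower accessibility with Prox1. A difference of 1 on this scale is a 2-fold change, and windows past it are called lower or higher. No values per library were used, so no replicate spread stands behind a window, no test was run, and a difference carries no replicate check. In libraries made from many cells, fewer cells with an open window and a less open window per cell cannot be told apart.

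Low-GC promoters were lower with Prox1, with a median difference of -0.55, quartiles of -0.94 and -0.13, and 82.2% of windows below 0. The median mean normalized read count per window was 149 in 4in1_GFP_OE and 98.0 in 4in1_Prox1_OE. In all, 354 of the 1592 windows (22.2%) were lower by at least 1, beside 24.4% of all windows, and 69 (4.33%) were higher by at least 1, beside 8.33% of all windows. Both shares were thus below those of the whole table. GC-rich promoters had a median of -0.19 (quartiles -0.33 and -0.056), with 345 of 14997 lower and 198 higher by at least 1. Low-GC windows farther than 1 kb from any start site, 95519 in number, had a median of -0.66, with 33.6% lower and 8.69% higher.

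The place of 0 matters for these counts. All windows had a median of -0.42, and their summed reads in 4in1_Prox1_OE were 0.751 times those in 4in1_GFP_OE. The same ratio of sums was 0.705 for low-GC promoters and 0.866 for GC-rich promoters. After the median of all windows was subtracted, the low-GC promoters stood at -0.13 and the GC-rich promoters at 0.23, and 106 low-GC promoters (6.66%) were lower and 117 (7.35%) higher by at least 1, beside 8.64% and 13.4% of all windows. Relative to the whole table, then, low-GC promoters were slightly lower and GC-rich promoters higher, and the excess of lower over higher calls turned round with this centring, in the whole table as well.

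**Figure D1:**
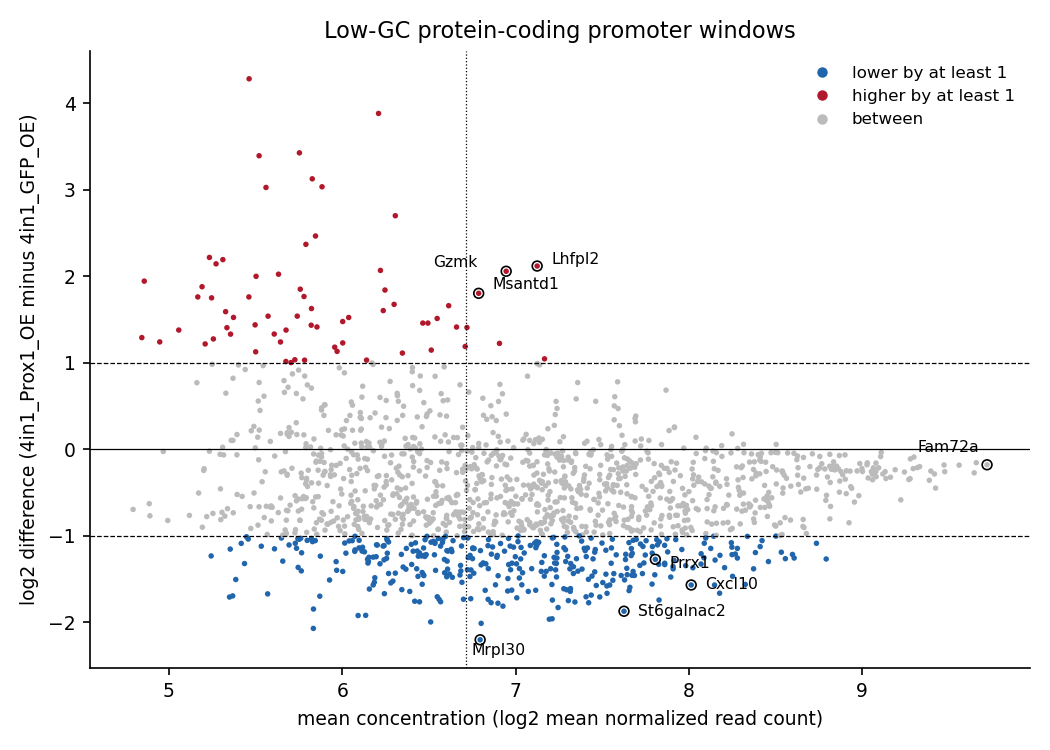
Difference between the groups (log2, y axis) against mean concentration (log2 mean normalized read count, x axis) for the 1592 low-GC promoter windows, with 354 lower (blue) and 69 higher (red) by at least 1, the fold limits dashed, the median concentration of all windows dotted and 8 named windows ringed. The largest positive differences lie at low concentration, and none of the windows in the 3 most accessible deciles of the table is higher by 1.

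The low-GC promoters were less accessible than GC-rich promoters, with medians of 149 and 497 reads in 4in1_GFP_OE. Their median concentration over both groups was 6.95, against 8.86 for GC-rich promoters and 6.71 for all windows. Of the low-GC promoters, 11.2% reached the top decile of all windows by that concentration, against 67.3% of the GC-rich ones. The median GC content of the low-GC promoters was 46.3% (range 28.4% to 49.8%), with a median of 2 CpG dinucleotides per window, against 66.2% and 17 in GC-rich promoters. The window lowest in GC belonged to Rps29, a ribosomal protein gene, with 28.4% GC and a difference of -0.37. Many windows tied at the GC values next to the 50% limit. The most accessible of those just inside (49.8% GC) were Fam72a and Ccdc163, with differences of -0.18 and -0.45, and of those just outside (50.2% GC) Dcaf15 and Aldh6a1, with -0.38 and -0.37.

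Across all protein-coding promoters the difference followed GC content in steps. Whether the libraries of the groups differ in GC content as a whole was not tested. The 143 windows under 40% GC had a median of -0.62 and the 470 between 40% and 45% a median of -0.65, with 29.4% and 30.0% lower by at least 1. The 979 between 45% and 50% stood at -0.47 with 17.5% lower. From there the median moved to -0.31 between 50% and 55%, -0.25 between 55% and 60% and -0.14 at 70% or more, where 0.0198% of 5039 windows were lower by at least 1. The share higher by at least 1 also shrank, from 5.59% under 40% GC to 0.615% at 70% or more. The 613 low-GC promoters under 45% GC held 183 of the 354 windows lower by at least 1.

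**Figure D2:**
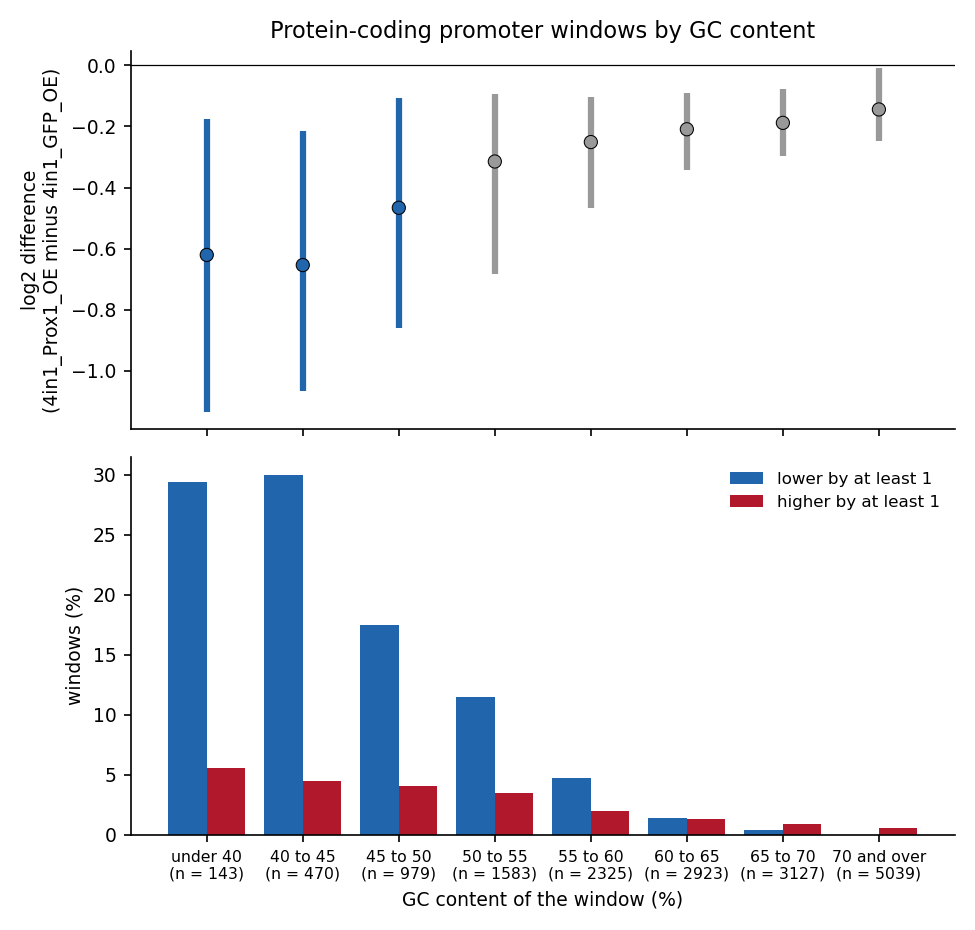
Protein-coding promoter windows in bins of GC content (x axis, percent). The upper panel gives the median log2 difference (points) and quartiles (bars), and the lower panel the percent of windows lower (blue) or higher (red) by at least 1, with the 3 bins of low-GC promoters in blue above. The median moves from -0.65 between 40% and 45% GC to -0.14 at 70% or more.

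GC content and accessibility go together, so the classes were also compared at equal concentration. Within deciles of mean concentration, the log2 difference of medians between low-GC and GC-rich promoters was -0.46, against -0.35 without that matching, and that between low-GC promoters and low-GC distal windows was 0.14. In decile 5 the low-GC promoters had a median of -0.73 and the GC-rich ones -0.060. In the top decile they had -0.30 and -0.20, while low-GC distal windows there had -0.79. By the median, the most accessible low-GC promoters were thus nearer to GC-rich promoters than to distal windows. Even so, 7.82% of them were lower by at least 1, against 0.812% of GC-rich promoters and 36.2% of distal windows in that decile. In the middle deciles the medians were nearer to those of distal windows, with -0.73 for both in decile 5 and -0.62 against -0.77 in decile 6. In the lowest decile the median of the low-GC promoters was -0.061, and 26 of 100 windows were higher by at least 1, beside 29.2% of all windows in that decile. Of the 69 higher windows, 63 lay below the median concentration of all windows, against 137 of the 354 lower ones. This holds for the whole table, where 89.4% of the higher and 45.7% of the lower windows lay below it.

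**Figure D3:**
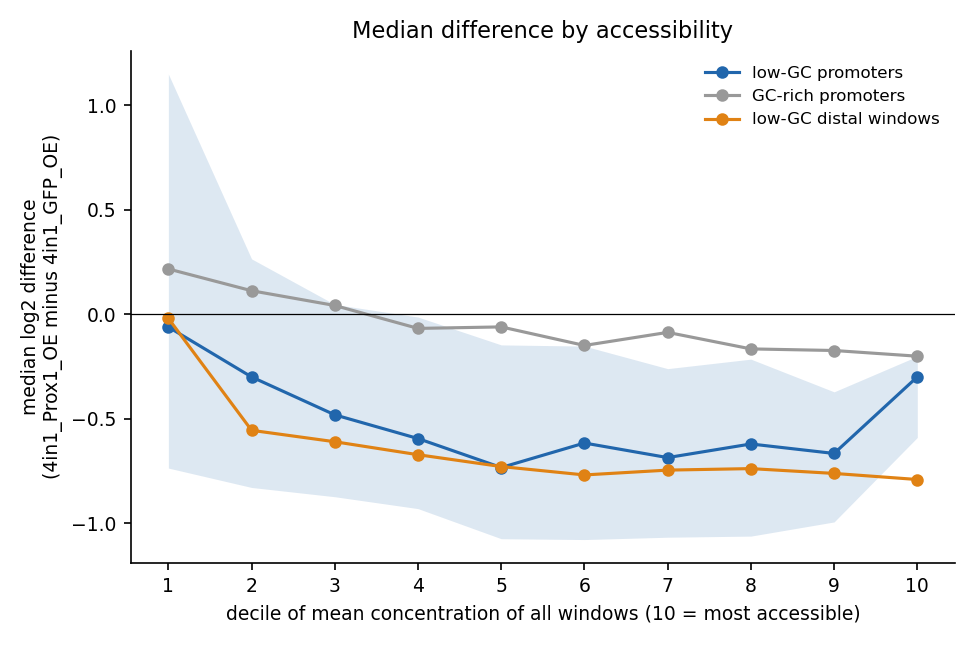
Median log2 difference (y axis) by decile of mean concentration of all windows (x axis) for low-GC promoters (blue, quartiles shaded), GC-rich promoters (grey) and low-GC distal windows (orange). The blue line lies nearer the orange than the grey one in the middle deciles. In the top decile it lies at -0.30, nearer the grey one at -0.20.

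Position around the start site made a small difference. The 369 windows that overlapped a start site (23.2%, against 59.9% of GC-rich promoters) had a median of -0.45, the 708 upstream of it -0.53 and the 515 downstream -0.62. The shares lower by at least 1 were 22.5%, 22.5% and 21.7%. By annotation 841 windows lay in introns, 481 between genes, 212 in untranslated regions, 32 in coding exons and 26 in noncoding exons, and their medians ran from -0.66 in coding exons to -0.45 in noncoding exons. The medians of the 19 autosomes ran from -0.74 to -0.23.

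For 649 genes a GC-rich promoter window was measured as well, so that a low-GC window could be set beside it in the same gene. Taking the most accessible window of each kind, the medians were -0.57 for the low-GC and -0.20 for the GC-rich window, and the low-GC window was the lower one in 439 genes (67.6%). Of 145 such low-GC windows lower by at least 1, 115 (79.3%) had a GC-rich partner that differed by less than 0.5, beside 80.6% of all 649 genes, so the share was near that of any gene. The low-GC windows were also the less accessible ones, with a median concentration of 6.93 against 8.79. The other 817 genes had no GC-rich promoter window, and their 884 low-GC windows had a median of -0.51. Where such a window covered the start site itself (250 windows), the median was -0.40 and 92.0% were below 0.

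Single genes show how far the promoter windows of 1 gene can part, at times at separate start sites. At Akap2, which encodes an A-kinase anchoring protein, the more accessible low-GC window was higher by 0.98, while the other low-GC window (-0.84) and the most accessible GC-rich window (-1.17) were lower. At Lhfpl2 the low-GC window stood at 2.12 and the GC-rich one at 0.022, and at Nsmce1, a subunit gene of the SMC5-SMC6 complex, the values were -1.96 and -0.21. At Gzmk, the gene of granzyme K, both were higher, by 2.06 and 1.71. Of the 119 genes with more than 1 low-GC window, 82 had all of them below 0, 5 all above 0 and 32 both signs. Of all low-GC promoter windows, 82.2% were below 0, 22.2% lower and 4.33% higher by at least 1. Whether windows of 1 gene go together more than those of separate genes was not tested. A window lower and another higher by at least 1 were found in 2 genes, Focad and Asb4, the latter named after its values were seen. Focad had -1.78 near one of its start sites and 1.67 near another, and Asb4 had -1.21, -0.23 and 1.24.

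Among windows at or above the median concentration of all windows, 217 of 932 low-GC promoters (23.3%) were lower and 6 (0.644%) higher by at least 1, beside 26.5% and 1.77% of all windows at that concentration. The lowest was an intronic window of Mrpl30, a mitochondrial ribosomal protein gene, with its centre 867 bases downstream of a start site. Its mean normalized read count was 182 in 4in1_GFP_OE and 39.7 in 4in1_Prox1_OE, a 4.60-fold lower value (difference -2.20). Another, more accessible low-GC window of Mrpl30 stood at -0.52 and its GC-rich window at -0.14. Olfr432, an olfactory receptor gene, followed with 179 and 44.3 (-2.01). Next came Nsmce1 with 233 and 59.8, and Ttc41 with 236 and 60.6. St6galnac2, which encodes a sialyltransferase, had 310.1 and 84.8, and Elavl1, the gene of the RNA-binding protein HuR, had 237 and 66.7. Tmem200a had 189 and 53.9, and Focad had 185 and 53.9. All 8 windows held between 179 and 310.1 reads with GFP and between 39.7 and 84.8 with Prox1, and all but Olfr432 had their centres more than 500 bases from the nearest start site.

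The highest windows at that concentration were chosen by their difference, so a low count in 4in1_GFP_OE is part of that choice. Lhfpl2 had a mean normalized read count of 52.3 in 4in1_GFP_OE and 227 in 4in1_Prox1_OE, and Gzmk had 47.8 and 199. Msantd1 had 49.2 and 172, and Ofcc1 57.7 and 153. P2ry14, which encodes a receptor for UDP-sugars, had 72.0 and 168, and Naaladl2 had 93.8 and 194. The other two, Lpcat1 (93.5 and 186), a phospholipid acyltransferase gene, and Akap2 (95.0 and 187), stayed just under the 2-fold limit. These last 3 calls depend on the scale, since Naaladl2 stood at 0.99 with a pseudocount of 8 reads, and Lpcat1 and Akap2 at 1.41 and 1.39 with the median of all windows subtracted. The windows of Lhfpl2, Gzmk, Msantd1 and Ofcc1 covered a start site. At the other end of the scale, the 6 most accessible low-GC promoters were Fam72a, Arid4a, Traf7, Prcc, Gpr108 and Cic. They held between 755 and 896 reads in 4in1_GFP_OE and differed by -0.27 to -0.15, less than the median low-GC promoter.

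**Figure D4:**
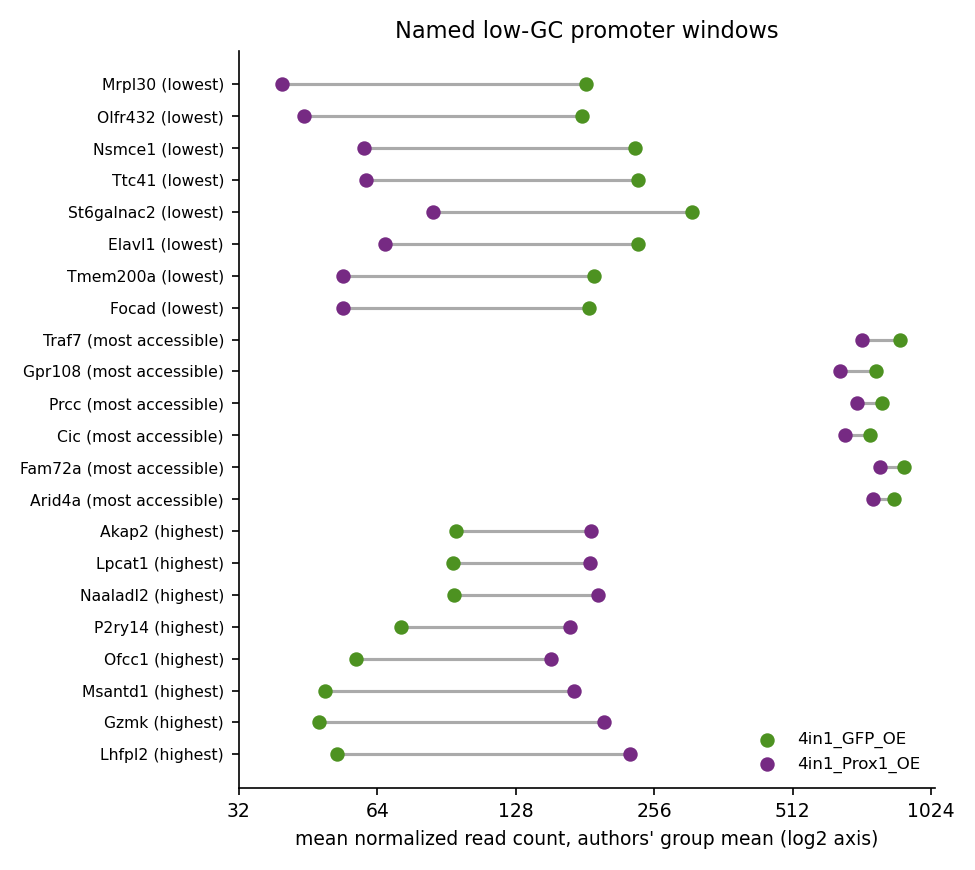
Mean normalized read count (log2 axis, the authors' group means) of the 8 lowest, the 6 most accessible and the 8 highest named low-GC promoter windows in 4in1_GFP_OE (green) and 4in1_Prox1_OE (purple). The lowest windows end between 39.7 and 84.8 reads with Prox1, and the highest begin between 47.8 and 95.0 reads with GFP. Both ranges follow in part from the choice of windows by concentration and difference.

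Of 30 genes on a fibroblast marker list all had a promoter window, and 8 of them had 9 low-GC windows, every one below 0, with a median of -0.42 and 3 lower by at least 1 (33.3%, beside 22.2% of all low-GC promoters, whose median was -0.55). The 29 GC-rich windows of the list had a median of -0.50, with 3 lower, beside -0.19 and 2.3% lower for all GC-rich promoters. The lower ones were Tnc, the gene of the matrix protein tenascin C (183 and 65.1 reads), Prrx1, a homeobox factor of limb mesenchyme (317 and 131), and Fap, a cell-surface protease of activated fibroblasts (186 and 85.9). The other listed genes stayed under the limit. Ogn, which encodes osteoglycin, had 396 and 297 reads (-0.42), and Dcn, which encodes decorin, had 214 and 180 (-0.25). Col1a2 stood at -0.63, Lum at -0.30, and the windows of Col3a1 at -0.23 and -0.17.

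Genes for matrix-degrading enzymes and their regulators had the lowest median of the lists examined with more than 2 windows. The 6 windows of 5 genes had a median of -1.15, and 4 were lower by at least 1 (66.7%, beside 22.2% of all low-GC promoters). Serpinb2, the gene of plasminogen activator inhibitor 2, had 145 reads with GFP and 43.6 with Prox1 (-1.73), and the stromelysin gene Mmp10 had 154 and 52.9 (-1.54). The collagenase and stromelysin genes Mmp13 and Mmp3, neighbours of Mmp10 on chromosome 9, stood at -1.07 and -1.24, and Ctsk, the gene of cathepsin K, at -0.76. All 4 windows past the limit covered a start site. The 16 GC-rich promoter windows of the same list had a median of -0.41, with 1 lower by at least 1, and so also lay below the median of GC-rich promoters (-0.19).

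Of the interferon and cytokine genes, 6 had 8 low-GC windows with a median of -0.76, of which 3 were lower (37.5%, beside 22.2% of all low-GC promoters) and none higher by at least 1. The 17 GC-rich windows of the list had a median of -0.54, with 2 lower, against the same 2.3% of all GC-rich promoters. The chemokine gene Cxcl10 had 386 and 130 reads in its more accessible window (-1.57), the interferon-induced Mx1 had 116 and 40.5 (-1.52), and the chemokine gene Ccl7 339.7 and 257 (-0.40). Il33, which encodes an alarmin cytokine, had windows at separate start sites. The one further upstream had 162 and 64.9 reads (-1.32), and the other had 137 and 145 (0.080).

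Low-GC promoter windows were found at 2 hepatocyte genes of the lists examined, near the 6.69% of all genes for the transcription factors (5.26%) and below it for the others (2.86%). Of 35 genes for secreted proteins and enzymes 5 had any promoter window, and the only low-GC one belonged to Itih1, a plasma inter-alpha-trypsin inhibitor chain gene, with 219 and 195 reads (-0.17). Of 19 hepatocyte transcription factor genes 16 had a promoter window, and 1 had a low-GC one. That was Hnf4g, with 50.2 and 56.5 reads (0.17). The 19 GC-rich windows of these factors had a median of -0.048 with 3 lower and 0 higher by at least 1. The 5 GC-rich windows of the secreted proteins and enzymes had a median of 0.10 with 0 lower and 1 higher. Of all GC-rich promoters 2.3% were lower and 1.32% higher. Prox1 itself had no low-GC promoter window.

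Markers of other cell types had between 1 and 3 low-GC windows per list. Csf1r, the macrophage growth factor receptor gene, had 274 and 84.1 reads (-1.71), and Cd68, a lysosomal glycoprotein gene of macrophages, had 437 and 308 (-0.51). Over the whole leukocyte list, 6 of 20 genes had a promoter window, with summed reads of 1550.5 in 4in1_GFP_OE and 955 in 4in1_Prox1_OE, and Ptprc, Adgre1, Itgam, Tyrobp and Spi1 were among those without one. The fibroblast list summed to 14029.9 and 9535. Of the endothelial list 11 of 15 genes had a promoter window (sums 2967 and 2589). Its low-GC windows were Tek at -0.68 and Lyve1 at -0.83, the latter with few reads (61.7 and 34.7). Sprr1a was the only epithelial gene with a low-GC window (-0.67), while the 11 promoter windows of that list summed to 2456 and 2472 reads with a median of 0.10. Elavl4 was the only neuronal one (-0.87), while the 19 promoter windows of that list summed to 4514 and 4154 with a median of -0.11. The more accessible window of Fabp4 (adipocyte) stood at -1.06. The part of other cells in these values was not tested. Among contractile genes, Cald1 stood at -0.19, Synpo2 at -0.026 and Ttn at 0.020. Mylpf stood at -0.36 in a window that is also within 1 kb of a start site of Tbc1d10b. Tnnt3 stood at -0.88 with few reads (59.2 and 32.2). The 20 GC-rich windows of the smooth muscle list had a median of -0.59 with 4 lower by at least 1 (2.3% of all GC-rich promoters were), and the most accessible one of Cald1 stood at -0.89.

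Of the gene families examined, the histone and ribosomal protein genes had no low-GC window past the limit. The 15 low-GC windows of 13 replication-dependent histone genes had a median of -0.33, and none differed by 1 in either direction. Hist1h3e had 661 and 551 reads (-0.26), Hist1h2ad 599.6 and 393 (-0.61) and Hist1h2bc 584 and 464 (-0.33), which put them among the most accessible windows. The 7 low-GC windows of ribosomal protein genes, of which 64 had a GC-rich promoter window, were also within 1 of 0, with a median of -0.23, among them Rps26 (-0.23), Rps23 (-0.19) and Rpl23a (-0.18). The 39 low-GC windows of 36 zinc finger genes named Zfp, a family with GC-rich promoter windows at 305 genes, had a median of -0.25, with 2 lower and 2 higher (5.13% each, beside 22.2% and 4.33% of all low-GC promoters). Zfp444 (-0.58), Zfp101 (-0.43) and Zfp120 (-0.25) were the most accessible of them.

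The 21 windows of olfactory and vomeronasal receptor genes, families silent outside sensory tissue, spread most widely. Their median was -0.79, with 8 lower (38.1%) and 3 higher (14.3%) by at least 1, beside 22.2% and 4.33% of all low-GC promoters. Vmn1r40 had 345 and 135 reads (-1.35), Olfr1438-ps1 254 and 123 (-1.04) and Olfr433 210 and 113 (-0.90). Vmn1r39 had 4.32 and 83.9 reads, the largest positive difference of any low-GC promoter (4.28). These 19 genes were 1.30% of the 1462 on that list, so few of the family had an open low-GC promoter in either group. Near-identical copies are common in these families, and reads shared between them could have been placed at either.

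Sequence motifs were counted as exact matches on both strands of each window, as a description. A match is not a bound site, and none of the letter strings given here contains another. The AP-1 motif (TGANTCA, any base at N) lay in 412 low-GC promoters, or 25.9%, against 4.51% of GC-rich promoters, 36.8% of low-GC distal windows and 28.8% of all windows. Low-GC promoters with it had a median difference of -0.80, and those without it -0.45. Within deciles of concentration the gap was -0.27. Of the windows with the motif 34.5% were lower by at least 1, and it lay in 40.1% of the lower and 24.6% of the higher windows. Of the sequences printed above, Mrpl30 and Olfr432 hold it on the lower side, and Naaladl2 and Lpcat1 on the higher side.

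Of the other motifs, the TEAD motif (GGAATG) lay in 17.9% of low-GC promoters, 7.59% of GC-rich promoters, 23.3% of low-GC distal windows and 20.1% of all windows. Low-GC promoters with it had a median of -0.65 against -0.52 without. The TATA box (TATAAA) was in 12.1%, against 2.31% of GC-rich promoters, 14.5% of low-GC distal windows and 9.60% of all windows, with medians of -0.42 and -0.56. The CCAAT box, which NF-Y binds, was about as frequent in low-GC (29.7%) as in GC-rich promoters (27.1%). It lay in 26.7% of low-GC distal windows and 24.1% of all windows. Its medians were -0.42 with and -0.59 without, and it lay in 47.8% of the higher and 25.1% of the lower windows. The GC box (GGGCGG), made of G and C alone and so tied to the split by GC content, lay in 5.15% of low-GC and 58.7% of GC-rich promoters and 10.0% of all windows. The ETS motif (CCGGAA) lay in 4.46% of low-GC promoters, 19.6% of GC-rich ones, 1.78% of low-GC distal windows and 4.20% of all windows. Its medians were -0.28 with and -0.56 without, and 0.054 of that gap was left within deciles of concentration.

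Long motifs were rarer. The serum response factor motif lay in 22 low-GC promoters (1.38%, against 1.13% of all windows), with a median of -0.83 against -0.54 without it. That gap of -0.29 was -0.13 within deciles of concentration, and 22.7% of these windows were lower by at least 1, close to the 22.2% of all low-GC promoters. The interferon-stimulated response element lay in 61 (3.83%, against 2.15%), with a median of -0.66. A Prox1 consensus, allowing 1 mismatch, lay in 9 (0.565%, against 0.305%), of which 3 were lower and none higher by at least 1, too few to set against the 22.2% and 4.33% of all low-GC promoters. Among hepatocyte factor motifs, the FOXA motif (TGTTTAC), in 49 windows (3.08%, against 2.65% of all windows), had 14 windows lower (28.6%) and 1 higher by at least 1, beside 22.2% lower of all low-GC promoters, with medians of -0.49 with and -0.55 without the motif. The HNF4 motif lay in 7 windows (0.440%, against 0.303%), and the HNF1 motif in none (0.0232% of all windows).

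**Figure D5:**
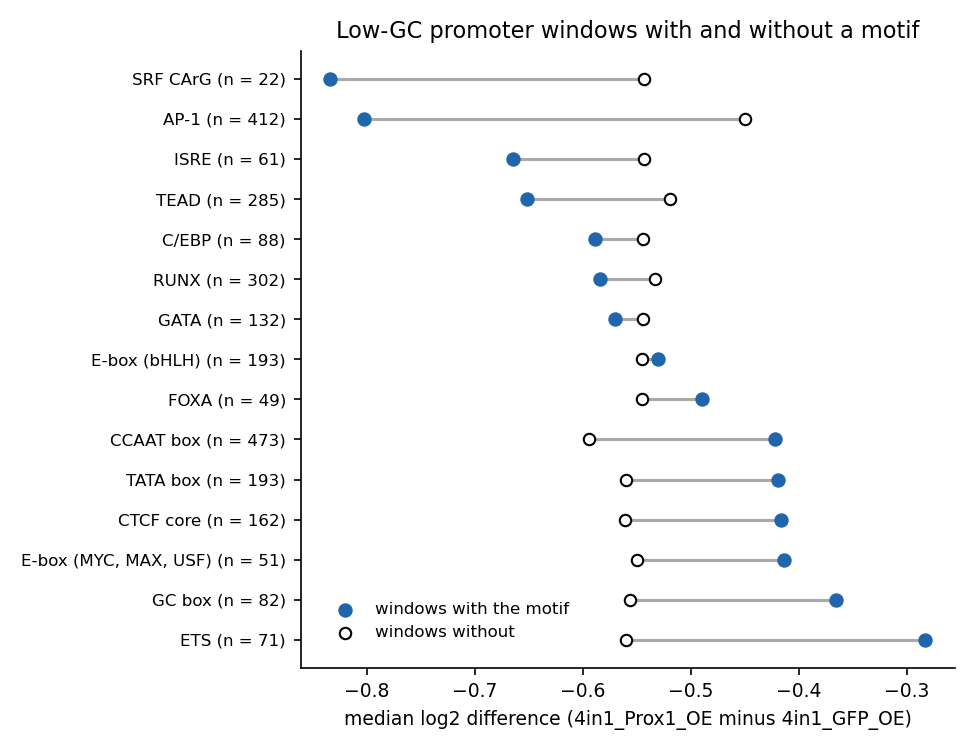
Median log2 difference (x axis) of low-GC promoter windows with (filled) and without (open) each motif found in at least 20 of them, with the number of windows in parentheses. Windows with the AP-1 motif lie at -0.80 against -0.45 without, and those with the ETS motif at -0.28 against -0.56.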

How the data were processed

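ATAC-seq reads were processed by the authors. Per the study's methods and the submitters' processing notes, they used Trimmomatic 0.38 for trimming, Bowtie 2 2.3.4.3 for alignment to mm10 and, for filtering, SAMtools 1.10, Picard 2.18.16 and bedtools 2.27.1, called peaks with MACS2 2.1.2 (a reporting summary names Genrich) and counted reads in windows around peaks with DiffBind 3.4.11. For the normalization the methods point to the DiffBind vignette and state no setting, and whether peaks were called per library is not given in the sources used here. The deposited table holds, per the file headers, log2 mean normalized read counts per window over both groups and in each group, which are the authors' means over 3 libraries. Its fold change, p-value and FDR columns, and a pair of lists of called windows, hold the authors' own comparison and were not used.

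Values per library were not used, so the depth per library and the replicate spread are unknown, no test was run, and whether libraries repeat each other could not be looked for. A window was called lower or higher past a difference of 1 on the log2 scale. If the authors scaled by whole libraries, the share of reads in peaks stays in each difference, so other places of 0 were tried. Read numbers in the text are 2 to the power of the deposited log2 values. Start sites, 41421 of protein-coding transcripts, came from the GENCODE M21 basic annotation, distances were taken from the window edge to the nearest one, and sequence came from GRCm38.p6 of RefSeq, whose chromosomes held all 176680 windows. A window was named by the gene of the nearest start site. Distal windows lay more than 1 kb from the start site of any gene. Motif strings were written from general knowledge, with 1 mismatch allowed for HNF1 and Prox1 only.

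Members, gene lists and motifs were chosen with earlier results of these data known. Windows were named by rule, not on chromosome Y, 1 per gene. The rule took the 8 lowest and 8 highest differences at or above the median concentration of all windows (6.71), the 6 most accessible, up to 3 of each list by concentration, hepatocyte factors, and the 2 nearest to 50% GC on each side. Other windows of listed genes, Rps29, Asb4, the Gzmk repeat, the repeat-masked letters and the CA repeat were chosen after values were seen. The statistics were tested on simulated data. Tables were handled in Python 3.11.15 with pandas 2.3.3, numbers with numpy 2.4.6 and scipy 1.17.1, and plots with matplotlib 3.10.9.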

Additional observations from a re-analysis of the deposited data

How the results depend on the processing

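No paired analysis was possible because the values used here are group means, and for the same reason no replicate could be left out. Low-GC promoters stayed below GC-rich promoters and above low-GC distal windows under each alternative computed, of which the 3 that shift 0 cannot change these gaps. Their median of -0.55 became -0.13 when the median of all windows was subtracted, -0.13 with equal totals, -0.28 when centred on the top 10% of windows by concentration, -0.65 under 45% GC, -0.49 within 500 bases of a start site and -0.45 over the start site. The 354 lower windows became 106, 107, 180, 183, 206 and 83 under these settings in that order, and 756 or 52 with a limit of 1.5-fold or 3-fold in place of 2-fold. The 69 higher windows became 117 with the median subtracted, 117 with equal totals, 29 under 45% GC, 39 within 500 bases, 12 over the start site, 21 without the 25% of windows of lowest concentration, and 117 or 32 with those limits. The counts under narrower definitions come from fewer windows. The gap to GC-rich promoters of -0.35 became -0.46 under 45% GC, -0.46 within deciles of concentration and -0.26 over the start site, and the gap to distal windows of 0.11 became 0.21 over the start site. A pseudocount of 8 reads, autosomes only, 1 window per gene and the start sites of every transcript type gave medians between -0.54 and -0.51 and counts within 1.5 times those given. Counts of windows near 4 reads are imprecise, so the largest positive differences rest on few reads.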

Other observations

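Repeats, the run of CA below included, were examined after values were seen, as a feature that the definition of low-GC promoters did not use. In the RefSeq assembly, letters of interspersed and simple repeats are written in lower case (masked). Of the low-GC promoter windows 79 (4.96%) were masked over at least 50% of their letters, beside 5.28% of all windows. They held 16 of the 354 lower windows (4.52%) and 8 of the 69 higher ones (11.6%), and their median difference was -0.29, against -0.56 for the other windows. In all windows the same shares were 4.57% of the lower and 11.7% of the higher ones. A run of CA repeated 4 times, on either strand, lay in 74 low-GC promoters (4.65%), among them 7 lower (1.98%) and 10 higher (14.5%) windows, and their median was -0.21. It lay in 4.20% of all windows, 3.10% of the lower and 7.02% of the higher ones. Reads from repeats can be hard to place, and the part of read placement in these values was not tested.

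Below the concentration at which windows were named, a large positive difference means few reads in 4in1_GFP_OE, since the mean over both groups is low. Some windows of this kind are named here, after their values were seen. Gm36028 had 9.41 reads with GFP and 138.6 with Prox1, and Gm4787 had 7.99 and 83.8. Batf, which encodes an AP-1 family factor of lymphocytes, had 21.1 and 137, and Ehf, the gene of an epithelial ETS factor, had 17.6 and 97.4.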
